A study of Mus musculus with 10 samples.

Results

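CD11c+ cells labelled as microglia, from the neonatal and the adult mouse brain, were compared here, using the 5 CD11c+ libraries of the 10 in the series and all 49315 genes counted in each. The libraries were chosen by their labels alone. The young group held 3 libraries of CD11c+ cells at postnatal day 5 (P5) and the adult group 2 libraries of CD11c+ cells at 9 months. All came from brains of wild-type C57BL/6 mice and were sorted by flow cytometry into subsets with and without CD11c, an integrin chain and the product of Itgax. One column kit served for the RNA of every sample. Illumina libraries followed, and the protocol names a low-input full-length cDNA kit, SMART-Seq v4, for the 9-month samples only. The cDNA method of the P5 samples is not stated, so the kit may have changed together with age. Age and cDNA kit are therefore confounded in this comparison and cannot be told apart. The labels do not say whether replicates came from separate or pooled animals, so the spread behind each p-value is that of these samples and may be technical. The 3 CD11c- libraries at P5 and 2 at 9 months were used only to ask where the age difference itself differed between the subsets.

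Microglia are the resident macrophages of the brain parenchyma. In the first postnatal week a CD11c+ population is concentrated in the developing white matter, where microglia divide, clear cells and debris and secrete growth factors such as IGF1. Adult microglia mostly stop dividing and carry a homeostatic programme that includes the purinergic receptor P2ry12 and the membrane protein Tmem119. CD11c returns on microglia in ageing white matter and around lesions, together with part of the neonatal programme.

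The 3 P5 libraries held 15181698, 2619610 and 18707050 counts and the 2 adult libraries 25483573 and 23400998. P5 replicate 2, the shallow library, stood apart. It had 23033 genes at 1 or more CPM (counts scaled by library size), where the other 4 had 12937 to 13524, and 10.8% of its counts in non-coding and pseudogene transcripts against 1.37% to 1.61%. Its correlation across genes with P5 replicates 1 and 3 was 0.771 and 0.783, whereas those libraries had an r of 0.992 with each other and the adult pair one of 0.987. Counts and medians of gene groups are therefore given with all 5 libraries and again without P5 replicate 2, and a fold change or p printed alone is from all 5 libraries unless another set is named. Xist, an RNA of female cells, had 377, 282 and 563 CPM by library size at P5 and 83.1 and 76.8 CPM at 9 months. The Y-linked Ddx3y had 88.6, 334 and 67.5 CPM against 65.9 and 82.9 CPM. Both were thus present in every library, and the part of sex make-up in the age differences was not tested. A list of 31 genes that mark border-associated macrophages, found at the meninges and along vessels, took 2.44%, 2.41% and 2.11% of counts in the P5 libraries, and homeostatic microglial genes 2.41%, 1.74% and 2.48%. The cells at P5 are therefore called by their label, and the part of other macrophages among them was not tested. Levels are CPM scaled by trimmed means of M-values (TMM), and a fold change is log2 of 9 months over P5 with its standard error (SE). Where 2 fold changes follow each other, the first is from all 5 libraries and the second without P5 replicate 2. A gene is said to have risen or fallen where it passed an adjusted p of 0.05 in both comparisons, unless only one is named.

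With all 5 libraries 1768 of 16387 genes were higher at 9 months and 1303 lower, 18.7% of those tested (10.8% higher and 7.95% lower). Without P5 replicate 2, 5057 of 15846 were higher and 5176 lower, 64.6% of those tested (31.9% higher and 32.7% lower), and 3227 and 4319 of these differed at least 2-fold. All 3068 of the 3071 genes called with 5 libraries that were tested again were called without P5 replicate 2, with the same sign. The common coefficient of variation between replicates fell by the same step from 0.636 to 0.183. No gene passed edgeR's test (0 calls) when any of the other 4 libraries was left out of the 5, with 2228 to 5022 genes at an unadjusted p under 0.05. Over all 5 libraries 6242 genes (38.1%) had both adult libraries above every P5 library and 3855 (23.5%) had both below. Calls this common are the background against which each gene group below is read. In bulk samples fewer cells of a type and less RNA per cell cannot be told apart, and this holds for every level given.

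Scaling decided the balance of directions. With the size factors of DESeq2 the share of calls that were higher at 9 months moved from 57.6% to 37.5% with all 5 libraries, and from 49.4% to 48.8% without P5 replicate 2. Scaling to the 36 homeostatic genes moved the median of all genes by -2.76 and -2.02, and left 1.45% and 4.24% of calls higher. DESeq2 size factors moved it by -0.31 and -0.02. An increase smaller than these shifts changes sign under that scaling, and the changes below are those on the TMM scale. TMM factors were 1.179 to 1.222 at P5 and 0.754 and 0.769 at 9 months, and the 50 most abundant genes took 16.7% to 22.3% of counts at P5 and 26.2% and 25.8% at 9 months.

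The fold change also ran with gene length. Over 5 equal bins of protein-coding genes from the shortest to the longest the median without P5 replicate 2 was 0.38, 0.28, 0.07, -0.26 and -0.59. With all 5 libraries it was 0.69, 0.67, 0.40, 0.04 and -0.55. The bin of genes richest in G and C had a median of -0.46 without P5 replicate 2, against 0.04 to 0.11 in the others. Age, kit and RNA state cannot be told apart in this gradient. Group medians were therefore also taken relative to genes of like length.

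**Figure D1:**
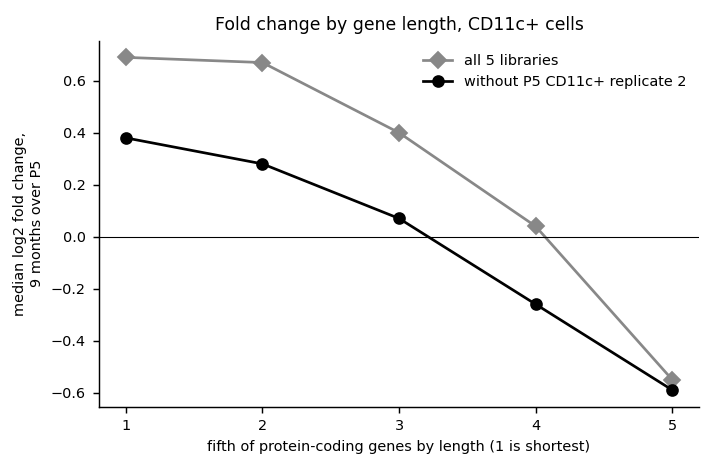
Median log2 fold change (9 months over P5, vertical axis) of protein-coding genes in 5 bins of gene length (horizontal axis, shortest first), with all 5 CD11c+ libraries (diamonds) and without P5 replicate 2 (circles). Both lines fall from the shortest to the longest genes, from 0.69 to -0.55 and from 0.38 to -0.59.

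**Figure D2:**
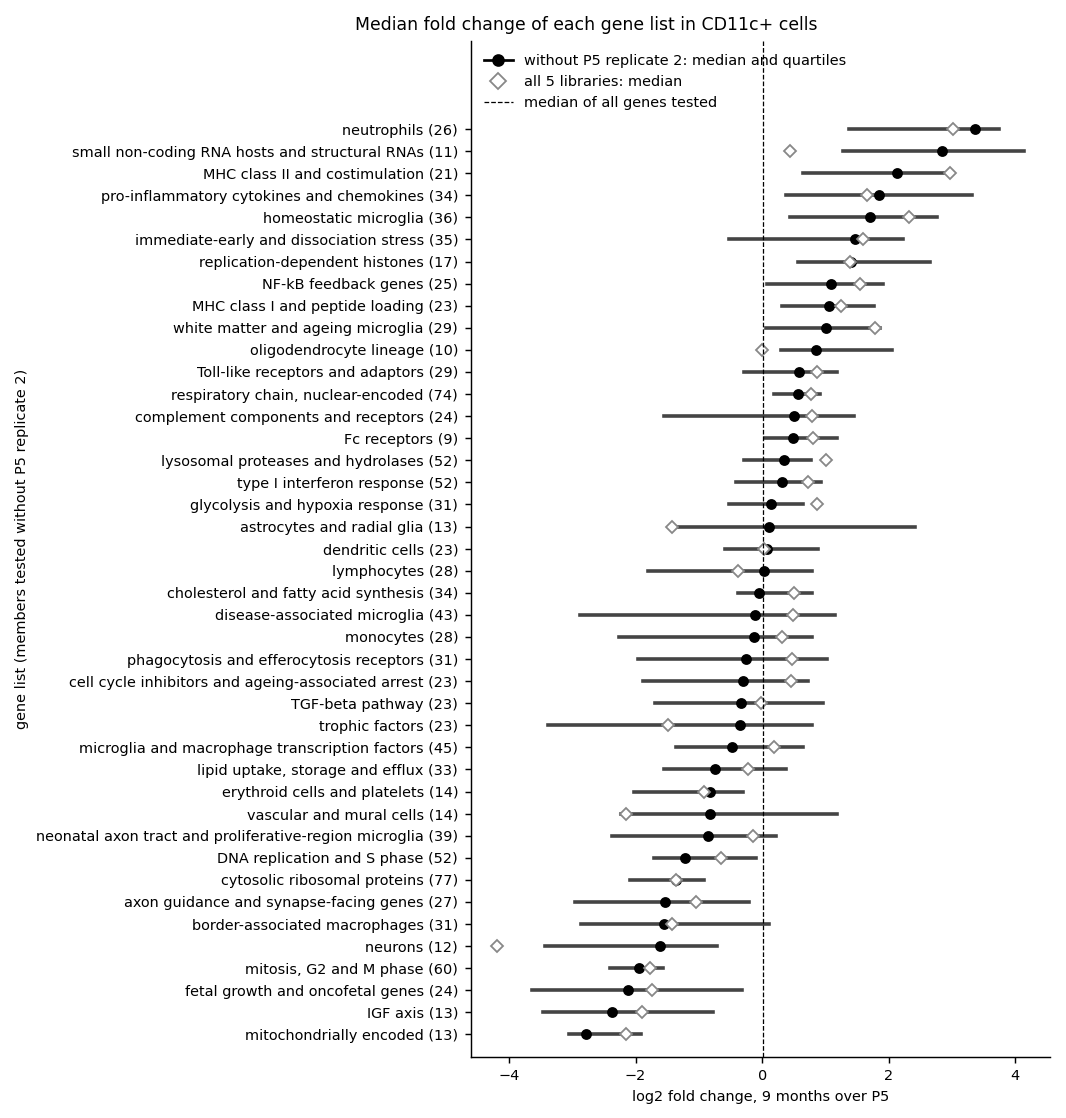
Median log2 fold change (horizontal axis) of each gene list with at least 5 tested members in both comparisons, without P5 replicate 2 (circles, with quartiles as bars) and with all 5 libraries (diamonds), on the TMM scale. Neutrophil, MHC class II, cytokine and homeostatic lists lie to the right of the dashed median of all genes and mitochondrial, IGF, oncofetal and mitosis lists to the left in both comparisons, while lists near the dashed line change side between them.

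Homeostatic microglial genes were higher in the adult cells on the TMM scale. Of 36 homeostatic genes 19 rose and none fell with all 5 libraries, with a median of 2.32 against 0.13 over all genes. Leaving out P5 replicate 2, 27 rose and 4 fell, with a median of 1.71 against 0.02. Both adult libraries lay above every P5 library for 31 of the 36. The list took 1.74% to 2.48% of counts at P5 and 9.56% and 8.89% at 9 months.

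Tmem119, a membrane protein used as a microglia marker (chromosome 5, 113793729 to 113800516), measured 79.5, 23.7 and 135 CPM at P5 and 5577 and 4378 CPM at 9 months. The groups were far apart, with log2 fold changes of 5.96 ± 0.85 (SE; adjusted p = 0.0176) and 5.12 ± 0.34 (adjusted p = 6.03e-05). P2ry12, the ADP receptor that steers microglial processes, had 633, 257 and 965 CPM at P5 and 5676 and 6411 CPM in the adult, an increase of 3.29 ± 0.66 (adjusted p = 0.029) and 2.5 ± 0.26 (adjusted p = 0.000323). In both genes P5 replicate 2 was the lowest library.

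The members with the smallest p were less familiar ones. Lrrc3, a leucine-rich repeat membrane protein, had 5.29, 5.02 and 6.04 CPM at P5 and 395 CPM in both adult libraries, a change of 6.17 ± 0.33 (adjusted p = 0.0155). Selplg, the ligand of P-selectin, had 136, 66.9 and 222 CPM against 8388 and 7529.6 CPM. Slc2a5, the fructose transporter GLUT5, had 43.2, 21.1 and 47.2 CPM against 1179 and 1195 CPM, and Ecscr, a cell-surface regulator, rose by 4.03 ± 0.39. These genes did not overlap between the ages in any library. Upk1b, a uroplakin of the tetraspanin family, went from 0.0551, 4.01 and 0.499 CPM to 371 and 391 CPM, and was among the largest increases measured (8.64 ± 1.45 and 9.89 ± 0.44).

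Of 6 other genes of microglial identity or function, Tgfbr1 alone rose in both comparisons. Csf1r, the receptor that microglia need to survive, had 4928, 1164 and 4597 CPM at P5 and 16212 and 12916 CPM at 9 months, and its change of 2.03 ± 0.75 did not pass with all 5 libraries (adjusted p = 0.106) but did without P5 replicate 2 (1.20 ± 0.21, adjusted p = 0.00307). The fractalkine receptor Cx3cr1 had 2021, 6436 and 1631 CPM against 9862 and 6659.8 CPM, so that P5 replicate 2 came close to an adult library. Its change passed only without that library (1.77 ± 0.25, adjusted p = 0.00124). Sall1, the transcription factor that marks microglia among macrophages, overlapped between the ages, with 344, 61.9 and 247 CPM against 238 and 194 CPM (-0.01 ± 0.70, adjusted p = 0.99), and without P5 replicate 2 it was lower in the adult (-0.86 ± 0.20, adjusted p = 0.00829). C1qa, a chain of complement C1q, had 1547, 1947 and 1934 CPM against 3718 and 2649 CPM and passed neither test (adjusted p = 0.212 and 0.125). Tgfbr1, a TGF-beta receptor, rose by 2.36 ± 0.49, whereas Trem2, the lipid-sensing receptor of microglia, had 572, 174 and 566 CPM against 1747 and 1510 CPM and passed only without P5 replicate 2 (1.10 ± 0.16, adjusted p = 0.00127).

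**Figure D3:**
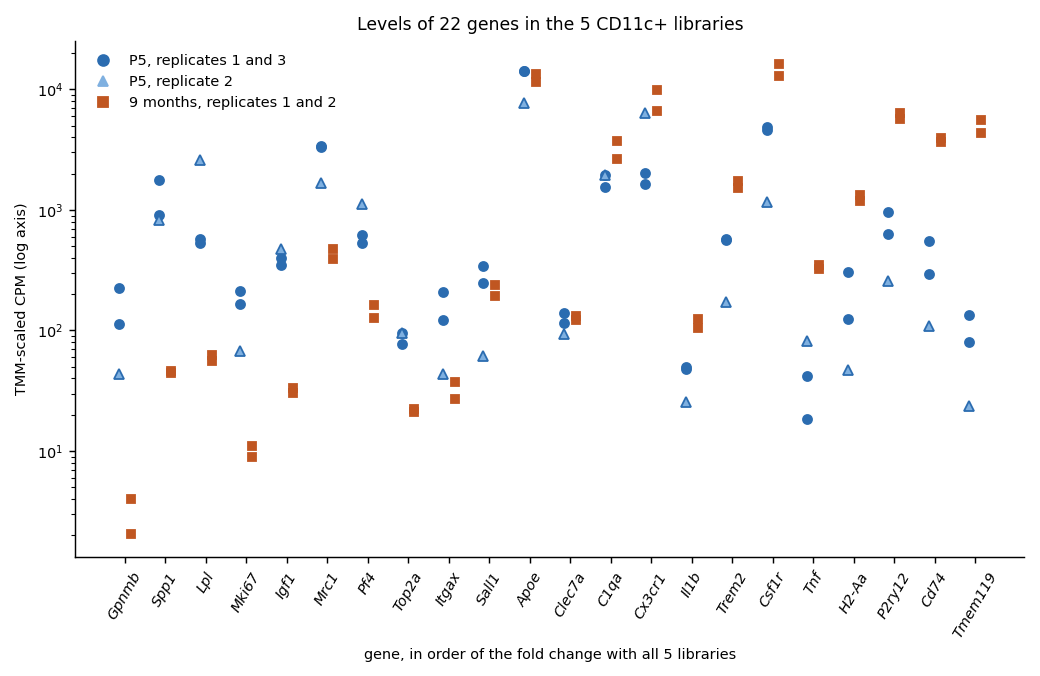
TMM-scaled CPM (log axis) of 22 genes in each CD11c+ library, with P5 replicates 1 and 3 as circles, P5 replicate 2 as triangles and the 2 adult libraries as squares. Gpnmb, Spp1, Lpl, Mki67 and Igf1 lie higher at P5 on the left, Tmem119, Cd74 and P2ry12 lie higher at 9 months on the right, and Sall1, Apoe and Clec7a overlap.

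Igf1, Spp1, Gpnmb and Lpl, which are secreted or take part in handling lipid and debris, fell. Itgax itself, whose product was the sorting marker, had 209, 43.2 and 123 CPM at P5 and 37.1 and 27 CPM at 9 months. All P5 libraries were above the adult ones, but the fall passed only without P5 replicate 2 (-1.97 ± 0.69, adjusted p = 0.0957, and -2.78 ± 0.29, adjusted p = 0.000313). Igf1, insulin-like growth factor 1 (chromosome 10, 87858265 to 87937042), had 396, 475 and 349.7 CPM at P5 and 30.4 and 33.1 CPM at 9 months. Its changes were -3.68 ± 0.37 (adjusted p = 0.0155) and -3.97 ± 0.15 (adjusted p = 2.76e-05), and here P5 replicate 2 matched its group.

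Spp1, the secreted phosphoprotein osteopontin (chromosome 5, 104435118 to 104441050), had 1784, 825 and 914 CPM at P5 and 44.7 and 46.3 CPM in the adult, changes of -4.69 ± 0.59 (adjusted p = 0.0169) and -5.30 ± 0.36 (adjusted p = 6.18e-05). Gpnmb, a lysosomal glycoprotein of phagocytes, had 224, 43.2 and 113 CPM against 3.96 and 2.06 CPM (-5.40 ± 0.91, adjusted p = 0.0206, and -6.21 ± 0.46, adjusted p = 8.69e-05). Lpl, lipoprotein lipase, had 569.5, 2591 and 528 CPM against 55.7 and 63.1 CPM (-4.37 ± 0.98, adjusted p = 0.036, and -3.62 ± 0.16 without the high P5 replicate 2). All P5 libraries lay above both adult libraries in these 3 genes.

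These 4 genes and Itgax are among the 43 tested of the disease-associated microglia list, whose genes rise in adult microglia around plaques. Of the 43, 4 rose and 10 fell with all 5 libraries, and 17 rose and 17 fell without P5 replicate 2, with medians of 0.48 and -0.11. Cst7, the cysteine protease inhibitor cystatin F, rose from 7.55, 4.01 and 5.63 CPM to 46.4 and 49 CPM (3.03 ± 0.36, adjusted p = 0.0162, and 2.45 ± 0.20, adjusted p = 0.000115). Apoe, the main lipid carrier of the brain, was 14187, 7681 and 14215 CPM at P5 and 13322 and 11459.8 CPM in the adult. Clec7a, the beta-glucan receptor Dectin-1, had 139.7, 94.3 and 115 CPM against 122 and 131 CPM. Neither of them passed with all 5 libraries, where the estimates were 0.04 and 0.12. Without P5 replicate 2 both estimates were negative and past the threshold, at -0.61 ± 0.21 (adjusted p = 0.0397) and -0.42 ± 0.15 (adjusted p = 0.0404).

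Of 39 genes of neonatal axon tract and proliferative-region microglia 4 rose and 9 fell, and without P5 replicate 2, 9 rose and 22 fell, with medians of -0.14 and -0.86. The chemokines of that list were among those that rose. Ccl4 had 16.9, 101 and 78.4 CPM at P5 and 3341 and 3968 CPM at 9 months, and Ccl3 149.6, 153 and 316 CPM against 2069 and 2243 CPM (5.81 ± 0.86 and 3.39 ± 0.50, both adjusted p = 0.0176). Of the white matter and ageing list 11 of 28 rose and 2 fell, and 19 of 29 rose and 6 fell without P5 replicate 2, with medians of 1.79 and 1.01. It shares Ccl3, Ccl4 and Ccl12 with the cytokine list and H2-Ab1 with the MHC class II list. Several genes, Igf1 and Spp1 among them, are in more than 1 of these lists.

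The IGF axis fell beyond its ligand. Of 14 tested members none rose and 6 fell with all 5 libraries, with a median of -1.90, and 1 rose and 9 fell of 13 without P5 replicate 2 (median -2.37). The remaining 8 of the 22 listed were too low to be tested. Igf1r, the IGF1 receptor, had 60.6, 117 and 68.4 CPM at P5 and 15.5 and 9.79 CPM at 9 months (-2.69 ± 0.46, adjusted p = 0.0209). The binding protein Igfbp4 had 834, 1054 and 788 CPM against 62.6 and 133 CPM (-3.19 ± 0.52). Foxo3, a transcription factor that insulin and IGF signalling keep out of the nucleus, fell by 2.26 ± 0.28 (adjusted p = 0.0163). Igfbp4 is also listed as a marker of border-associated macrophages, whose summed level moved in the same direction, as given below.

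More trophic factors fell than rose. Of 24 tested, 2 rose and 6 fell with all 5 libraries, and 6 of 23 rose and 11 fell without P5 replicate 2, with medians of -1.49 and -0.35. The shares of all genes, for this list and the TGF-beta list below, were 10.8% higher and 7.95% lower. Without P5 replicate 2 they were 31.9% and 32.7%. Bmp2, a bone morphogenetic protein, had 47.2, 29.4 and 68.1 CPM at P5 and 4.01 and 8.35 CPM at 9 months (-2.97 ± 0.56, adjusted p = 0.0251). Osm, the cytokine oncostatin M, rose from 31.5, 36.1 and 52 CPM to 360.1 and 374 CPM (3.20 ± 0.35, adjusted p = 0.0155). In the TGF-beta pathway 5 of 24 rose and 4 fell, and 8 of 23 rose and 10 fell without P5 replicate 2, with medians of -0.02 and -0.34. Bambi, a decoy receptor, rose by 3.30 ± 0.41, the receptor Acvrl1 rose from 27.2, 20.7 and 26.9 CPM to 77.2 and 64.1 CPM and the shared signal transducer Smad4 fell by 2.05 ± 0.29.

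Of 27 axon guidance and synapse-facing genes tested, 1 rose and 3 fell with all 5 libraries and 4 rose and 19 fell without P5 replicate 2, with medians of -1.05 and -1.54. Plxnd1, a semaphorin receptor, had 139.8, 186 and 113 CPM at P5 and 2.14 and 1.73 CPM at 9 months, a change of -6.24 ± 0.45 (adjusted p = 0.0155). Plxnc1, another plexin, had 72.5, 53.9 and 65.2 CPM against 7.66 and 5.57 CPM. Sema6d, a transmembrane semaphorin, fell by 1.95 ± 0.37, whereas the ephrin receptor Epha2 rose by 2.35 ± 0.58 (adjusted p = 0.0437). Of the fetal growth and oncofetal genes 2 of 25 rose and 5 fell, and 4 of 24 rose and 16 fell without P5 replicate 2 (medians -1.74 and -2.12). The RNA-binding protein Igf2bp3 had 45.3, 68.6 and 40 CPM at P5 and 1.51 and 1.61 CPM in the adult, and the imprinted gene Peg10 fell by 4.48 ± 0.57.

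Mitosis genes are switched on together in G2 and M phase, in part through a CHR element and CCAAT boxes in their promoters, which bind the MuvB complex and NF-Y. The promoters of 4 of the genes described here are shown to give the letters behind that description, from 250 bases before to 50 after the first start listed, 5′ to 3′ on the gene's strand (RefSeq, GRCm38.p6). Capitals mark the CCAAT box (CCAAT) and the CHR (TTTGAA or TTCGAA) on either strand, and no CHR shares a base with a CCAAT box in them. Top2a, topoisomerase II alpha, lies at chr11:99024140-99024439 on the minus strand. Mki67, the proliferation marker Ki-67, lies at chr7:135716330-135716629 on the minus strand. Bub1, a spindle checkpoint kinase, lies at chr2:127831810-127832109 on the minus strand, and Cenpe, a kinetochore motor, at chr3:135212313-135212612 on the plus strand.
Top2a: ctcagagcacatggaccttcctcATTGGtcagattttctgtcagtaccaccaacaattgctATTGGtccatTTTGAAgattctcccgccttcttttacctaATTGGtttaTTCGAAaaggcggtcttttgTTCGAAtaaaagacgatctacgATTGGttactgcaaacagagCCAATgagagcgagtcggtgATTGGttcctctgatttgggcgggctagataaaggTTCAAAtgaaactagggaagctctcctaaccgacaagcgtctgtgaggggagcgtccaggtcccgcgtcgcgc
Mki67: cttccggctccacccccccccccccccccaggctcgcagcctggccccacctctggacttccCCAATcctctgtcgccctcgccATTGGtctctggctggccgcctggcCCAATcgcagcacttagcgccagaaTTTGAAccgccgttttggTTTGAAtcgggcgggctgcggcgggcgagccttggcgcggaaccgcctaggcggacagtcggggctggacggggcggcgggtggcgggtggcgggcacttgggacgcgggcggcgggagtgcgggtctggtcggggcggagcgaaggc
Bub1: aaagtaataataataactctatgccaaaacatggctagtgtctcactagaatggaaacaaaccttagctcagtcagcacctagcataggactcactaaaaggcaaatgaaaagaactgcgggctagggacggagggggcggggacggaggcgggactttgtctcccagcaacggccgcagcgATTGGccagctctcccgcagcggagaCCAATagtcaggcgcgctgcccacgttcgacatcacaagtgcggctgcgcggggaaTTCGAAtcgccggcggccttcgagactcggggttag
Cenpe: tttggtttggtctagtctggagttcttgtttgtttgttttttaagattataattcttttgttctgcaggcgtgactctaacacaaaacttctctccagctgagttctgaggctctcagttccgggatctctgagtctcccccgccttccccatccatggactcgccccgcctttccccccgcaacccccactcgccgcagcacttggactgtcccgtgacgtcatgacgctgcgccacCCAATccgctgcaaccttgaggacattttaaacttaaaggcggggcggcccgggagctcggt
Top2a holds 6 CCAAT boxes and 4 CHR matches, Mki67 3 and 2, Bub1 2 and 1, and Cenpe 1 CCAAT box and no CHR match (0) in this window. A match describes the letters and is not a shown binding site.

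Of 60 mitosis genes 24 fell and none rose with all 5 libraries, with a median of -1.78. With P5 replicate 2 left out, 56 fell and 2 rose, with a median of -1.94, and for 48 of the 60 every P5 library lay above both adult ones. The list took 0.198% to 0.228% of counts at P5 and 0.0613% and 0.0582% at 9 months. Relative to genes of like length the median was -1.83 and -1.87. Among the 56 that fell without P5 replicate 2, 46 had a promoter in the table, of which 36 (78.3%) held a CHR match against 19.4% of all 27025 promoters, and 33 (71.7%) a CCAAT box against 37.9%. Motif shares, here and below, were not compared with those of list members that did not move. They describe the kind of gene listed and do not bear on the change with age.

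Mki67 had 211, 68.2 and 167 CPM at P5 and 11.1 and 8.96 CPM at 9 months, a fall of 3.89 ± 0.61 (adjusted p = 0.0182) and 4.64 ± 0.20 (adjusted p = 2.76e-05). Top2a had 94.8, 95.7 and 77.8 CPM against 22.2 and 21 CPM (-2.05 ± 0.28, adjusted p = 0.0176). Cenpe had 38.7, 33.8 and 27.8 CPM against 4.27 and 3.62 CPM, Bub1 18.1, 16.1 and 14.3 CPM against 1.72 and 1.17 CPM, and the condensin subunit Smc4 fell by 2.19 ± 0.31. The 3 P5 libraries were close together in Top2a, Cenpe and Bub1, P5 replicate 2 included.

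DNA replication genes were also lower. Of 52 S phase genes 2 rose and 8 fell with all 5 libraries and 4 rose and 36 fell without P5 replicate 2, with medians of -0.65 and -1.22. Uhrf1, which carries DNA methylation through replication, had 44.9, 36.5 and 37.3 CPM at P5 and 6.15 and 4.79 CPM in the adult (-2.85 ± 0.33, adjusted p = 0.0162). The histone chaperone subunit Chaf1a had 18.8, 30.1 and 12.1 CPM against 0.677 and 0.0557 CPM, and the helicase Hells 19.1, 38.5 and 18.9 CPM against 2.81 and 3.51 CPM. Slbp, which binds the stem loop of histone messages, went the other way, from 46.7, 60.5 and 44.7 CPM to 170.3 and 166 CPM (1.73 ± 0.28, adjusted p = 0.0198). Of the 36 that fell without P5 replicate 2, 26 had a promoter in the table, and 9 (34.6%) held an E2F match (TTTCCCGC or TTTGGCGC, both strands) against 1.63% of all promoters.

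Of 23 genes listed as inhibitors of the cycle or tied to ageing-associated arrest 3 were higher and 3 lower, and 7 and 8 without P5 replicate 2. This was close to all genes, of which 10.8% were higher and 7.95% lower, and 31.9% and 32.7% without that library. Cdkn1a, the inhibitor p21, rose from 41.6, 47.8 and 77 CPM to 221 and 215 CPM (1.97 ± 0.36, adjusted p = 0.0241). Btg2, an antiproliferative immediate-early gene, rose from 105, 130.1 and 265 CPM to 6175 and 5759.5 CPM (5.16 ± 0.62). The inhibitor Cdkn2c fell by 3.12 ± 0.51 and Lmnb1, the lamin B1 gene that is lost in senescent cells, fell by 2.41 ± 0.46. E2f1, a driver of S phase, fell by 2.71 ± 0.34 (adjusted p = 0.0169).

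Antigen presentation rose. Of 21 MHC class II and costimulation genes 14 rose and none fell with all 5 libraries (median 2.97), and 18 rose and 2 fell without P5 replicate 2 (median 2.13). Both adult libraries were above every P5 library for 19 of them, and the list took 0.311% to 0.749% of counts at P5 and 2.25% in both adult libraries. Cd74, the invariant chain that escorts class II molecules, had 292, 109.7 and 549.7 CPM at P5 and 3964 and 3684 CPM at 9 months (3.59 ± 0.73, adjusted p = 0.03). H2-Ab1, a class II beta chain, had 119.5, 69.6 and 226 CPM against 2759.7 and 2479.5 CPM (4.24 ± 0.61, adjusted p = 0.0176). Its partner chain H2-Aa had 124, 47.2 and 306 CPM against 1324 and 1195 CPM and passed narrowly (2.98 ± 0.78, adjusted p = 0.0493). The peptide-loading genes H2-DMb1, H2-DMb2 and H2-Ob rose by 3.73, 2.97 and 3.33.

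For MHC class I and peptide loading 11 of 23 rose and 1 fell, and 16 rose and 2 fell without P5 replicate 2, with medians of 1.24 and 1.05. H2-M3, a class Ib molecule, had 26.1, 22.1 and 30.9 CPM at P5 and 156 and 147 CPM in the adult (2.52 ± 0.28, adjusted p = 0.0158), and the peptide editor Tapbpl rose by 2.30 ± 0.38. Within the H2-Q cluster H2-Q7 rose by 3.01 ± 0.48 and H2-Q4 fell by 3.05 ± 0.37, with 73.3, 115 and 121 CPM at P5 against 13 and 11.8 CPM. H2-Q1 had 0, 0 and 0.0454 CPM against 25.1 and 17.6 CPM, a ratio of 927 (exact 95% interval 166 to 36662, counting error only). The H2-Q genes are near-identical copies of each other, and the handling of reads that match several of them is not given in the sources used here, so their split is uncertain.

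Interferon response genes were mixed. Of 52, 9 rose and 2 fell with all 5 libraries and 19 rose and 12 fell without P5 replicate 2, with medians of 0.72 and 0.31. Usp18, which damps interferon signalling, had 7.66, 3.68 and 7.81 CPM at P5 and 59.2 and 58.7 CPM at 9 months (3.16 ± 0.39, adjusted p = 0.0165). Ifi35 went from 22, 22.4 and 23.1 CPM to 104 and 97.6 CPM, and Ifit2, an antiviral RNA sensor, rose by 1.41 ± 0.26. Slfn5, a schlafen family member, fell by 2.03 ± 0.30. Of the promoters of the 14 genes that rose without P5 replicate 2 and had one in the table, 7 (50%) held the core of the interferon-stimulated response element on either strand, against 3.49% of all. Irf1, a transcription factor of the same response, rose from 59, 60.9 and 85.6 CPM to 380.3 and 406 CPM (2.52 ± 0.33).

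Cytokines and chemokines were widely higher in the adult cells. Of 34 pro-inflammatory genes 13 rose and 2 fell, and 22 rose and 4 fell without P5 replicate 2, with medians of 1.66 and 1.84. Tnf, tumour necrosis factor, had 18.4, 81.6 and 41.6 CPM at P5 and 348 and 323 CPM at 9 months (2.84 ± 0.63, adjusted p = 0.0348). Il1b, interleukin 1 beta, had 50.1, 25.4 and 48 CPM against 124 and 104 CPM (1.46 ± 0.37, adjusted p = 0.0467, and 0.80 ± 0.15). Ccl12, a monocyte-attracting chemokine, rose from 50.7, 46.2 and 76.3 CPM to 570.2 and 761 CPM, and Cxcl16 from 15.7, 31.4 and 24.6 CPM to 272 and 295 CPM (3.53 ± 0.39 and 3.57 ± 0.39). Ccl8 was nearly absent at P5, with 0.165, 0.669 and 1.54 CPM, and reached 45 and 64.9 CPM.

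Of 25 NF-kB feedback genes 9 rose and 1 fell, and 13 rose and 4 fell without P5 replicate 2 (medians 1.55 and 1.09). The adhesion molecule Icam1 had 56.6, 40.1 and 68.9 CPM at P5 and 703 and 629.7 CPM in the adult (3.59 ± 0.38). Cd83, a surface marker of activated myeloid cells, had 104, 29.8 and 129 CPM against 1680 and 1568 CPM. Nfkbie, an inhibitor of NF-kB, rose by 2.29 ± 0.32. Bcl2a1b, a survival gene with near-identical copies whose reads may have been shared, rose by 2.11 ± 0.31.

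Toll-like receptors and adaptors rose in 7 of 29 and fell in 1, and in 14 and 6 without P5 replicate 2 (medians 0.87 and 0.58). Tlr3, the receptor of double-stranded RNA, had 24.1, 27.8 and 24 CPM at P5 and 114 and 107 CPM at 9 months, and Tlr12 2.31, 1 and 2.86 CPM against 59 and 33 CPM (2.13 ± 0.25 and 4.38 ± 0.52). The signalling kinase Irak1 fell by 2.16 ± 0.39. Of 24 complement genes 5 rose and 2 fell, and 12 rose and 8 fell without P5 replicate 2. C4b rose from 34.8, 15.1 and 36.8 CPM to 234 and 191 CPM (2.87 ± 0.45), and the C5a receptor C5ar1 rose by 2.27 ± 0.49. Fcna, the complement-activating ficolin A that border-associated macrophages express, fell from 115, 208 and 136 CPM to 19.3 and 25 CPM (-2.79 ± 0.41). Of 11 Fc receptor genes 1 rose, Fcrl1, and 5 of 9 rose and 2 fell without P5 replicate 2.

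Among phagocytic receptors 5 of 31 rose and 7 fell, and 10 and 12 without P5 replicate 2 (medians 0.47 and -0.26). The shares of all genes were 10.8% higher and 7.95% lower, and 31.9% and 32.7% without that library, so without it this list lay near them. Havcr2, the phosphatidylserine receptor TIM-3, had 82, 26.4 and 63.5 CPM at P5 and 561 and 531 CPM at 9 months (3.25 ± 0.53, adjusted p = 0.0196). The engulfment adaptor Elmo1 rose by 2.54 ± 0.36 and the bridging protein Mfge8 by 1.46 ± 0.26. Mrc1, the mannose receptor CD206 and a marker of border-associated macrophages, fell from 3412, 1669 and 3302 CPM to 479 and 391 CPM (-2.68 ± 0.55, adjusted p = 0.0305).

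Lysosomal genes were higher in 10 of 52 and lower in 3, and in 24 and 8 without P5 replicate 2, with medians of 1.01 and 0.34. Smpd1, acid sphingomyelinase, had 26.5, 26.1 and 26.2 CPM at P5 and 149 and 119.7 CPM in the adult (2.35 ± 0.26, adjusted p = 0.0155). The cysteine protease Ctso rose by 2.38 ± 0.28 and the depalmitoylase Ppt1 by 2.27 ± 0.34. Galc, which degrades the myelin lipid galactosylceramide, fell from 119, 119 and 86.4 CPM to 25.3 and 26 CPM (-2.08 ± 0.31, adjusted p = 0.0176). Of the 18 genes that rose without P5 replicate 2 and had a promoter in the table, 5 (27.8%) held the E-box CACGTG of the lysosomal CLEAR element, against 7.24% of all.

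In lipid uptake, storage and efflux 2 of 33 rose and 5 fell, and 6 and 19 without P5 replicate 2 (medians -0.23 and -0.75). Besides Lpl, the fatty acid transporter Cd36 fell from 352, 198 and 427 CPM to 83.8 and 84.1 CPM (-1.96 ± 0.44, adjusted p = 0.037). The apolipoprotein Apoc1 fell by 3.05 ± 0.44 and the fatty acid binding protein Fabp3 by 3.45 ± 0.76. Of 34 genes of cholesterol and fatty acid synthesis 4 rose and none fell, and 10 rose and 7 fell without P5 replicate 2. The 4 were the sterol enzymes Sc5d, Fdft1 and Ebp and the fatty acid elongase Elovl1, with changes of 1.92, 1.71, 1.34 and 1.98. For comparison, 10.8% of all genes were higher and 7.95% lower, and 31.9% and 32.7% without P5 replicate 2.

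Energy metabolism differed by genome. Of 74 nuclear genes of the respiratory chain 15 rose and none fell with all 5 libraries and 46 rose and 4 fell without P5 replicate 2, with medians of 0.77 and 0.57, and 0.51 and 0.28 relative to genes of like length. Ndufs7, a complex I subunit, had 40.8, 42.8 and 44.3 CPM at P5 and 142 and 135 CPM at 9 months (1.70 ± 0.25, adjusted p = 0.0176), and Sdhb of complex II rose by 1.78 ± 0.30. The 13 mitochondrially encoded genes moved the other way, with 4 falling and none rising, and all 13 falling without P5 replicate 2 (medians -2.15 and -2.79). They took 2.38%, 0.771% and 2.79% of counts at P5 and 0.391% and 0.418% at 9 months, and in the CD11c- libraries 7.15% to 28.0% and 0.223% and 0.387%. mt-Nd5 had 2021, 1269.8 and 2138 CPM against 328 and 474 CPM.

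Cytosolic ribosomal protein genes fell in 13 of 77 and rose in none with all 5 libraries, and fell in 67 and rose in 1 without P5 replicate 2, with a median of -1.37 in both. They took 2.94%, 6.86% and 3.49% of counts at P5 and 1.15% and 1.25% at 9 months. Rps15a had 224, 494 and 274 CPM against 59.5 and 78.5 CPM (-2.26 ± 0.49, adjusted p = 0.0333), with P5 replicate 2 the highest. Many ribosomal protein genes have processed pseudogenes, with which reads may have been shared. Glycolysis and hypoxia genes rose in 4 of 31 and fell in none, and rose in 10 and fell in 9 without P5 replicate 2 (medians 0.86 and 0.14). Over all genes 10.8% were higher and 7.95% lower, and 31.9% and 32.7% without that library. Without it the counts of this list lay near those shares. The glucose transporter Slc2a1 rose from 33.1, 19.4 and 33.3 CPM to 136 and 125 CPM (2.18 ± 0.33, adjusted p = 0.018).

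Genes that also respond to cell isolation were higher at 9 months. Of 35 immediate-early and stress genes 12 rose and 2 fell, and 21 rose and 8 fell without P5 replicate 2, with medians of 1.60 and 1.47. They took 1.14%, 1.58% and 2.68% of counts at P5 and 5.31% and 6.05% at 9 months, and 1.25% to 1.84% against 3.74% and 3.14% in the CD11c- libraries. Hspa1b, an inducible heat-shock protein 70 gene (chromosome 17, 34956436 to 34959238), had 0.716, 0.335 and 2.72 CPM at P5 and 1912 and 1408 CPM in the adult, the largest increase named with all 5 libraries (10.17 ± 0.96, adjusted p = 0.0155), and 9.45 without P5 replicate 2, where Upk1b exceeded it at 9.89. Its near-identical neighbour Hspa1a had 1.49, 1.67 and 7.63 CPM against 1960.1 and 1671 CPM, and reads of the pair may have been exchanged. Egr2, an immediate-early transcription factor, rose by 2.45 ± 0.26, with 37 to 40.1 CPM in the P5 libraries. Tnf, Il1b, Ccl3 and Ccl4, and Icam1, Cd83, Nfkbie and Bcl2a1b of the NF-kB list, rose in the same libraries as this list, and its part in their increase was not tested.

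Replication-dependent histone genes, whose messages mostly lack a poly(A) tail, were higher in 2 of 22 and lower in none, and higher in 9 of 17 and lower in 1 without P5 replicate 2 (medians 1.39 and 1.40), while mitosis genes fell. The histone share of counts was not higher at 9 months, at 0.0133% and 0.0124% against 0.0139%, 0.0236% and 0.0154% at P5. The summed histone level overlapped between the ages, at 116 to 206 CPM at P5 and 161 to 176 CPM at 9 months. Hist1h4c had 0.22, 0 and 0.363 CPM at P5 and 4.53 and 6.07 CPM at 9 months, and Hist1h2ae 1.16, 1 and 1.27 CPM against 5.89 and 8.4 CPM. Of the structural RNAs 1 of 13 rose and none fell with all 5 libraries, and 9 of 11 rose and none fell without P5 replicate 2 (median 2.84), led by Snord118 with 0.0551, 0.335 and 0.0908 CPM against 5.73 and 5.29 CPM. P5 replicate 2 was far from its group here, with 267 CPM of the structural RNA Rn7sk against 6.72 and 8.85 CPM at P5 and 14.8 and 25.4 CPM in the adult. Kit and age cannot be told apart in these RNAs. Histone and structural RNA genes have near-identical copies, so single members are uncertain.

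Beyond the lists, the 8 largest increases with all 5 libraries included Ache, the acetylcholine esterase, with 0.165, 0 and 0.272 CPM at P5 and 28.3 and 26.3 CPM in the adult (7.10 ± 0.70, adjusted p = 0.0155). Thrsp, a regulator of fatty acid synthesis, went from 0.551, 2.34 and 0.545 CPM to 83.3 and 91.4 CPM, and Mlph, a melanosome transport adaptor, from 2.2, 0 and 2.86 CPM to 159.8 and 165 CPM. Mymk, known as a muscle fusion factor, had 0.496, 0 and 0.408 CPM against 43 and 49.1 CPM. Without P5 replicate 2 the list gained Csmd3, a large adhesion-type membrane protein, and Chst8, a sulfotransferase. Csmd3 had 0.33 and 0.454 CPM in P5 replicates 1 and 3 but 36.8 CPM in replicate 2, against 145 and 130.1 CPM in the adult, and Chst8 0.11 and 0.272 CPM, 10 CPM in replicate 2, and 50.1 and 42 CPM.

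The largest decreases were led by the stefin A cluster of chromosome 16, a family of cysteine protease inhibitors that neutrophil-lineage cells also express. BC100530 had 13.1, 41.5 and 19.3 CPM at P5 and no count (0) in either adult library, which makes it at least 226-fold lower against a floor of 3 counts over the adult group. Stfa2 was at least 107-fold lower by the same measure, with 4.96, 28.4 and 9.03 CPM at P5. Stfa3 had 1 library with counts in the adult, a ratio of 305 (exact 95% interval 54.3 to 12069). Stfa1 had 18, 27.4 and 22.7 CPM against 0.208 and 0.167 CPM (-6.85 ± 0.56, adjusted p = 0.0155). These genes are near copies of each other, so the share of each is uncertain.

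Other large decreases were single genes. Marco, a scavenger receptor, had 13.3, 76.6 and 11.7 CPM at P5 and 0 and 0.278 CPM at 9 months, and Cebpb, a myeloid transcription factor, had 57.9, 599.8 and 103 CPM against 3.23 and 2.45 CPM (-6.47 ± 1.37, adjusted p = 0.032). P5 replicate 2 was the highest library for both, and without it the changes were -6.86 ± 0.63 and -5.24 ± 0.36. Foxo4, a forkhead factor, fell from 33.5, 4.35 and 29.2 CPM to 0.313 and 0.0557 CPM. Cdc42bpg, a Cdc42 effector kinase, was even among P5 libraries, with 23.2, 22.7 and 26.1 CPM against 0.313 and 0.167 CPM (-6.60 ± 0.55). Without P5 replicate 2 the pro-apoptotic gene Bak1, the chloride channel gene Ttyh3 and the membrane protein Vat1 were among the 8 largest, with changes of -6.47, -6.32 and -6.29.

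Transcription factors of microglia and macrophages moved both ways, with 7 of 45 higher and 8 lower, and 15 and 23 without P5 replicate 2 (medians 0.19 and -0.47). Over all genes 10.8% were higher and 7.95% lower, and 31.9% and 32.7% without that library. Tfec, related to the lysosomal regulator TFEB, had 34.5, 26.4 and 31.9 CPM at P5 and 2.45 and 2.95 CPM in the adult (-3.52 ± 0.37, adjusted p = 0.0155). Tal1, a haematopoietic factor, fell from 52, 37.8 and 48.2 CPM to 5.73 and 7.01 CPM (-2.85 ± 0.33).

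The label of microglia was set against markers of other cells. All of P2ry12, Tmem119, Cx3cr1 and Csf1r were detected in each of the 5 libraries. Transcripts listed as markers of border-associated macrophages, which live at the meninges and along vessels rather than in the parenchyma, were also detected. Which cells these transcripts came from was not tested. The 31 genes of the list took 0.348% and 0.359% of counts at 9 months, in place of the 2.11% to 2.44% at P5. None was without counts in either group, and 29 exceeded 1 CPM in every P5 library. With all 5 libraries 3 rose and 10 fell, and 4 rose and 19 fell without P5 replicate 2 (medians -1.43 and -1.55). Lyve1, the hyaluronan receptor of perivascular macrophages, had 939, 665 and 935 CPM at P5 and 84 and 64.7 CPM in the adult (-3.51 ± 0.43, adjusted p = 0.0164). Pf4, platelet factor 4, had 531, 1125 and 623 CPM against 127 and 163 CPM (-2.39 ± 0.50, adjusted p = 0.0319), and Ccl8 and Cd209a of the same list rose. The part of these cells in the falls of Igfbp4, Fcna and Mrc1 and in the low P5 share of homeostatic genes was not tested.

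Neutrophil markers moved the opposite way. Of 26 tested, 14 rose and 2 fell, and 20 rose and 3 fell without P5 replicate 2 (medians 3.02 and 3.37). Their summed level was 461 to 574 CPM at P5 and 2957 and 4313 CPM at 9 months, or 0.0526% to 0.0686% and 0.325% and 0.227% of counts, against 14.5% and 19.5% in the adult CD11c- libraries. Elane had no count at P5 (0), and all 27 markers had counts in the adult. Ngp, a secondary granule protein, went from 29, 19.7 and 37 CPM to 908 and 527 CPM and Ltf, lactoferrin, from 23.2, 17.1 and 26.1 CPM to 420.4 and 268 CPM. The microglial gene Cx3cr1 is also listed among monocyte markers, with 2021, 6436 and 1631 CPM at P5 and 9862 and 6659.8 CPM at 9 months. Monocyte markers, most of each sum being Cx3cr1, summed to 3002 to 7549 CPM at P5 and 7932 and 11344 CPM at 9 months. Of 27, 4 rose and 8 fell, and 8 of 28 rose and 12 fell without P5 replicate 2 (medians 0.31 and -0.13), with Chil3 rising from 3.64, 1 and 3.54 CPM to 234 and 159 CPM and the sialoglycoprotein Spn changing by -2.71 ± 0.33. The part of neutrophil RNA in the increases of Il1b, Camp, Chil3 or Cd177 was not tested.

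Dendritic cells, which also carry CD11c, were looked for by 24 markers, which summed to 1207 to 2861 CPM at P5 and 3424 and 3539 CPM at 9 months, none without counts in either group. With all 5 libraries 2 of 24 rose, Cd209a and Ly6d, and 2 fell, Clec10a and Zbtb46, and 7 of 23 rose and 6 fell without P5 replicate 2 (medians 0.03 and 0.07). These counts lay near the shares of all genes, 10.8% higher and 7.95% lower, and 31.9% and 32.7% without P5 replicate 2. The part of dendritic cells in the increase of class II genes was not tested.

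Neuronal markers summed to 53.5 to 278 CPM at P5 and 20.6 and 24.8 CPM in the adult, with 0 of 15 higher and 2 lower, Camk2a among them, and 2 of 12 higher and 5 lower without P5 replicate 2. Oligodendrocyte markers summed to 381 to 456 CPM and 1159 and 1269.7 CPM, and Mag, Cnp and Trf rose by 3.47, 1.65 and 1.90, while Sox10, Cldn11 and Opalin had no counts in the adult. Of these markers 3 of 13 rose and none fell, and 5 of 10 rose and 1 fell without P5 replicate 2. Vascular markers summed to 75.1 to 339.5 CPM and 57.8 and 67.6 CPM, and astrocyte markers to 647 to 1102 CPM and 1433 and 1441 CPM, of which Slc1a3 rose by 3.72 ± 0.68 and Nes fell by 4.17 ± 0.53. With P5 replicate 2 left out, 3 of 14 vascular markers were higher and 5 lower, and 4 of 13 astrocyte markers higher and 4 lower. Of 31 lymphocyte markers Igkc rose and Thy1 fell, and 6 of 28 rose and 7 fell without P5 replicate 2. The shares of all genes, to be set beside the counts of each list here, were 10.8% higher and 7.95% lower. Without P5 replicate 2 they were 31.9% and 32.7%. Ttr, the transthyretin of choroid plexus, rose from 0.275, 1.34 and 0.59 CPM to 33 and 32.7 CPM. Of 7 eosinophil, basophil and mast cell markers 1 rose, Siglecf (1.88 ± 0.26), and of 14 erythroid and platelet markers Gp9 rose (4.72 ± 0.88) and Pf4 fell. Leaving out that library, the first list had 2 of 4 higher and 1 lower and the other 1 of 14 higher and 5 lower. Haemoglobin Hbb-bs had 186, 380 and 611 CPM at P5 and 109 and 114 CPM in the adult.

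**Figure D4:**
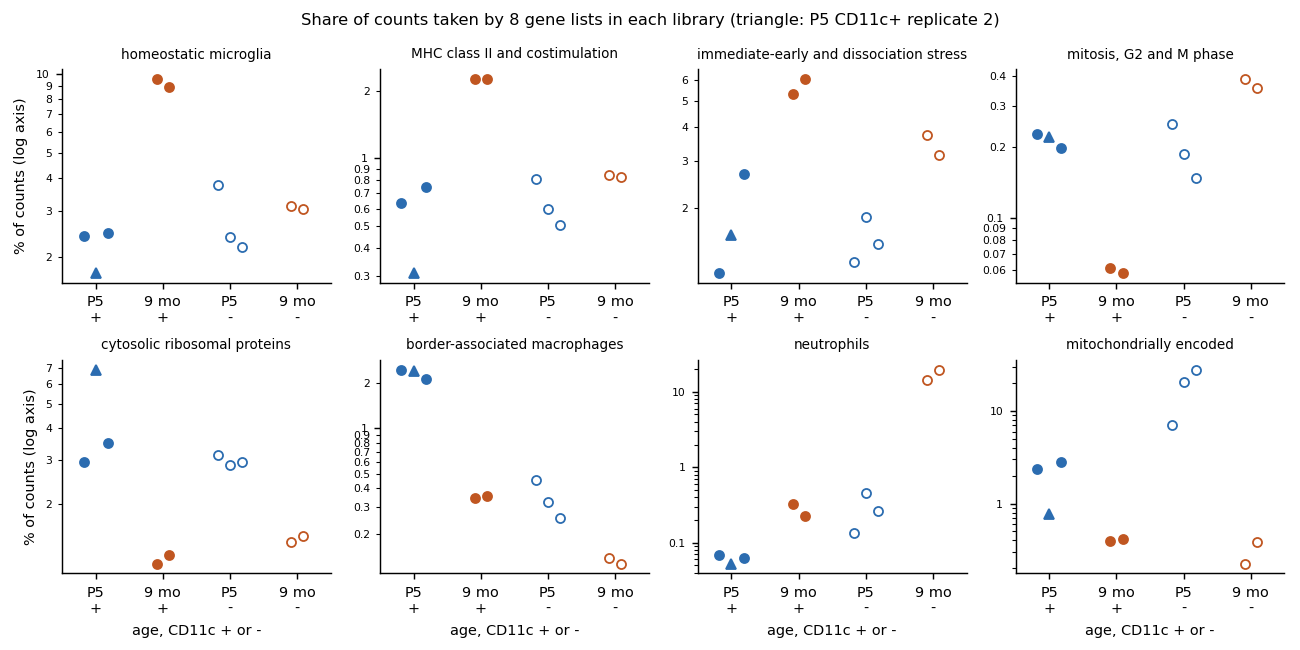
Share of all counts (percent, log axis) taken by 8 gene lists in each library, with CD11c+ libraries filled, CD11c- libraries open, P5 in blue, 9 months in orange and P5 CD11c+ replicate 2 as a triangle. In CD11c+ cells homeostatic, MHC class II, stress and neutrophil shares are higher at 9 months and mitosis, ribosomal protein, border-associated macrophage and mitochondrial shares lower, while the neutrophil share reaches 14.5% and 19.5% in the adult CD11c- libraries.

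To ask which age differences belong to CD11c+ cells, the change with age in CD11c+ cells was compared with that in CD11c- cells in a fit of all libraries. A kit effect that is the same in both subsets cancels in this difference, and one that differs between subsets does not. With all 10 libraries 59 of 19555 genes had a higher change in CD11c+ cells and 305 a lower one, 1.86% of those tested (0.302% and 1.56%). Without P5 CD11c+ replicate 2 these were 1607 and 1889 of 18348 (19.1%, of which 8.76% higher and 10.3% lower). Scaling to the homeostatic genes left 0.178% and 1.11% of these calls higher, in place of 16.2% and 46%. When P5 CD11c- replicate 3 was left out of the 10 libraries, edgeR made 0 calls, with 2689 genes at an unadjusted p under 0.05. With P5 CD11c+ replicate 2 left out as well, 2930 genes were called. Leaving out any one of the 4 adult libraries leaves 1 library in its group, so the calls rest on both adult libraries of each subset. The adult CD11c- libraries hold the neutrophil share given above, and its part in the differences was not tested.

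Mitosis genes differed. With all 10 libraries 33 of 60 had a lower change with age in CD11c+ cells and none a higher one, and without P5 CD11c+ replicate 2, 59 of 60 had a lower one. The median change was 1.04 in CD11c- cells and the median difference -2.98. Top2a changed by 0.76 in CD11c- cells, and the difference was -3.07 (adjusted p = 0.000241) without P5 CD11c+ replicate 2 and -2.99 (adjusted p = 0.013) with all 10 libraries. Mitosis genes took 0.357% and 0.389% of counts in the adult CD11c- libraries, the libraries with the high neutrophil share. Among homeostatic genes 5 of 36 had a higher change in CD11c+ cells and 30 did without P5 CD11c+ replicate 2, with a median change of -0.16 in CD11c- cells. Slc2a5 (difference 3.35, adjusted p = 0.0335), Lrrc3 (2.58) and the adhesion receptor Adgrg1 (3.55, adjusted p = 0.0369) were among the 5, and Tmem119 passed only without P5 CD11c+ replicate 2 (3.57, adjusted p = 0.000923).

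For the MHC class II list 0 of 21 members differed with all 10 libraries and 5 were higher and 1 lower without P5 CD11c+ replicate 2, with a median change of 1.60 in CD11c- cells. Of 35 stress genes 0 differed with all 10 libraries, and 2 were higher without P5 CD11c+ replicate 2. Hspa1b changed by 9.60 in CD11c- cells, and the difference was 0.29 (adjusted p = 0.917). Igf1 fell in both subsets, with a change of -4.30 in CD11c- cells and a difference of 0.43 ± 0.38 (SE; adjusted p = 0.461) without P5 CD11c+ replicate 2. Spp1 differed only without that library (-2.24, adjusted p = 0.0218), as did Gpnmb (-4.44, adjusted p = 0.00159). Mitochondrially encoded genes had a median change of -5.41 in CD11c- cells, and 0 of 13 differed with all 10 libraries, while 6 of 13 had a higher change in CD11c+ cells without P5 CD11c+ replicate 2.

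**Figure D5:**
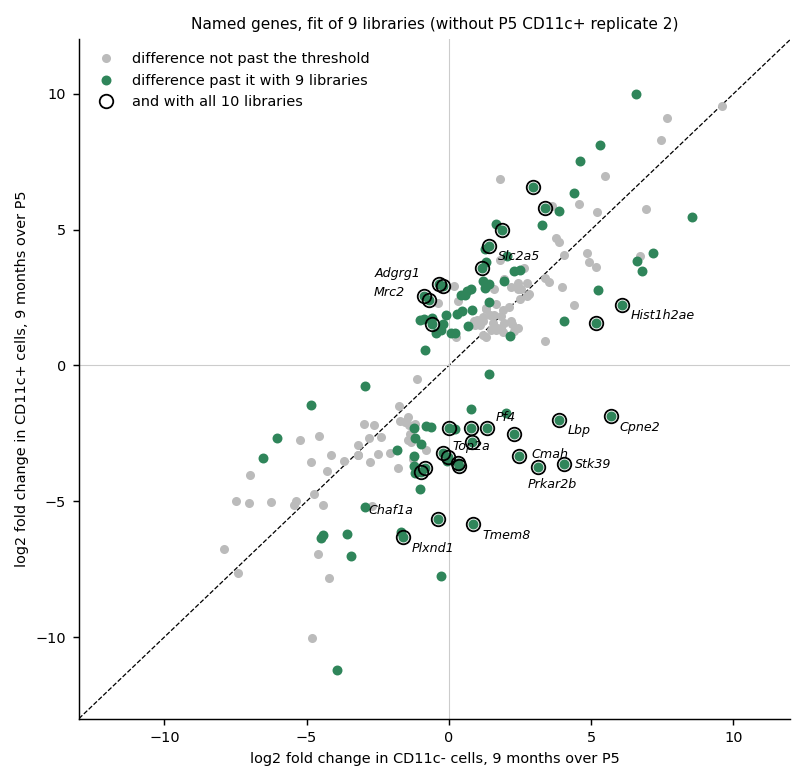
Log2 fold change with age in CD11c- cells (horizontal axis) and CD11c+ cells (vertical axis) of 208 genes named by rule, each a point, from the fit without P5 CD11c+ replicate 2. Some of them were named for a large difference between the subsets. The difference passed the threshold for 100 genes (green) and with all 10 libraries as well for 31 of them (ringed), such as Tmem8, Chaf1a and Plxnd1 below the dashed line of equal change and Slc2a5, Adgrg1 and Mrc2 above it.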

How the data were processed

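RNA-seq counts per gene were deposited by the authors, 1 table per library, with the gene's position, strand and length per the file headers. Per the submitters' processing notes the tools were Trimmomatic 0.36, STAR 2.5.2b and Subread 1.5.2. Genome build, strand setting and the handling of reads with several matches are not given in the sources used here, so overlapping and antisense genes cannot be told apart. Of 49315 gene identifiers 49056 were named from GENCODE M21, and 44858 of these (91.4%) had the same start and end. No column was left unused (0).

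Low genes were filtered with filterByExpr, libraries scaled by TMM and groups compared with edgeR 4.0.16 (quasi-likelihood test, Benjamini-Hochberg adjusted p of 0.05) in R 4.3.3. Alternatives were DESeq2 1.42.0, limma 3.58.1 (voom), other filters, scalings and samples. The tests were checked on simulated data. Floors and intervals hold counting error alone, as no source used here states molecular identifiers.

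Members and gene lists (45, with 1468 of 1473 entries matched) were chosen with earlier results of these data known. Genes named are a fixed set of 24, the 8 largest changes in each direction in each comparison (average log2 CPM of at least 3, no overlap, protein-coding), up to 4 members per list with the smallest p, and the 5 largest differences between subsets in each direction. Some of these genes are not reported here.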

Additional observations from a re-analysis of the deposited data

Results flagged for a closer look

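By edgeR's test of the difference itself, the change with age differed between CD11c+ and CD11c- cells for 31 of 208 named genes. These 31 passed both with all 10 libraries and without the shallow P5 CD11c+ library. Some of the 208 were named for being among the largest of these differences, so 31 of 208 is not a rate. Over all genes 364 of 19555 (1.86%) passed with all 10 libraries. Flagged here are 15 of them, with values from all 10 libraries. The change in CD11c+ cells was lower by these log2 differences: Top2a -2.99, Pf4 -3.85, Chaf1a -5.47, Stk39 -8.28, Prkar2b -7.64, Tmem8 -6.36, Cmah -5.49, Cpne2 -7.22 and Lbp -6.60. It was higher for Slc2a5 (3.35), Mrc2 (3.77), Adgrg1 (3.55), Slco4a1 (3.43), Asap3 (3.40) and Gprasp2 (3.22). Neutrophil markers took 14.5% and 19.5% of counts in the adult CD11c- libraries and 0.325% and 0.227% in the adult CD11c+ libraries, and the part of this in the differences was not tested.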

How the results depend on the processing

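The comparison of all 5 libraries made 3071 calls in edgeR, 5346 in DESeq2, 5128 in limma-voom, 744 with no filter on low counts and 9497 when scaled to the homeostatic genes. Leaving out 1 library gave 0 to 10233 calls, the latter without P5 replicate 2. Without P5 replicate 2 the count was 10233, and 7538 to 10968 with 1 further library left out, and no named gene changed sign under the alternatives run, with homeostatic scaling taken relative to the shift of all genes. The difference between subsets had 364 calls with 10 libraries, 623 with DESeq2 size factors, 2375 in DESeq2, 693 with no filter, 1279 for genes at 10 CPM or more in 2 libraries, 708 for protein-coding genes and 7851 scaled to the homeostatic genes, and 0 to 3496 with 1 library left out. With 9 libraries it had 3496, 10541 on that scaling and 1630 to 4350 with 1 library left out. The cause was not tested. A fit with the replicate number as a block gave 1779 calls in place of 3071. Deviations of same-numbered samples from their group means correlated at 0.06 and 0.05. The deviations of the 2 adult libraries mirror each other, so these values cannot settle whether same-numbered samples were paired. No block could be fitted without P5 replicate 2, where no residual degrees of freedom remain.

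On the homeostatic scaling itself, with its shift left in, 53 of 208 named genes changed sign with all 5 libraries, 41 of them past the threshold on the TMM scale, and 45 without P5 replicate 2, 44 of them past it. Il1b (1.46) was -1.22 and Tnf (2.84) -0.18 with all 5 libraries. Relative to that shift, and under the other alternatives, the sign of 5 named genes changed with all 5 libraries. None of the 5 was past the threshold with all 5 libraries, and each was past it without P5 replicate 2. Clec7a (0.12) was -0.19 with DESeq2 size factors and in DESeq2, -0.23 with no filter, -0.16 at 10 CPM or more, -0.08 in the fit of both subsets and -0.42 to 0.48 with 1 library left out. Apoe (0.04) was -0.27, -0.27, -0.33, -0.21 and -0.18 in the same order, -0.05 for protein-coding genes and -0.61 to 0.22 with 1 library left out. Sall1 (-0.01) was 0.41 in limma-voom, 0.17 relative to the shift under homeostatic scaling, 0.55 with the replicate block and -0.86 to 0.48 with 1 library left out. Rn7sk (-2.21) was 0.53 in limma-voom and -2.80 to 0.95, and Sostdc1 (-0.48) 3.0 in limma-voom, 0.91 with the block and -1.20 to 7.04. On the same terms list medians changed sign under at least 1 alternative for 16 of 44 lists with all 5 libraries and 6 of 42 without P5 replicate 2. Centring on genes of like length was chosen after seeing the data. The 2619610 counts of P5 replicate 2 and the 2 adult libraries limit the precision.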
